A study of Mus musculus with 30 samples.

Results

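The genes described here encode the machinery that carries proteins into mitochondria: the translocases of the outer and inner membranes, the chaperones that pull and fold the imported proteins, and the peptidase that trims them. They were chosen by name. Every protein-coding mouse gene whose symbol starts with Tomm or Timm was taken, together with Samm50, Mtx1, Mtx2, Pam16, Dnajc19, Grpel1, Hspa9, Hspd1, Hspe1, Pmpca and Pmpcb. This gave 37 members among the 49089 gene identifiers counted. Of these, 34 passed the expression filter, which left 11368 genes in all for testing. The other 3 were Tomm20l with 1 read over all samples, Timm8a2 with 0 and Tomm6 with 45.

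Nearly all mitochondrial proteins are made in the cytosol and enter through the TOM complex of the outer membrane, in which Tomm40 forms the channel and Tomm20, Tomm22 and Tomm70a act as receptors. Proteins with a cleavable presequence then pass through the TIM23 complex and are drawn into the matrix by a motor built around the Hsp70 protein Hspa9, carrier proteins are escorted by the small Tim chaperones to the TIM22 complex, and outer membrane barrels are assembled by the SAM complex. The matrix processing peptidase removes presequences and the chaperonin of Hspd1 and Hspe1 folds proteins that have arrived. In hepatocytes this route supplies the enzymes of fatty acid oxidation, the urea cycle and respiration.

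RNA-seq was performed on AML12 cells, a hepatocyte line from mice that carry a human TGF-alpha transgene. The cells were transfected transiently with siRNA, and 4 genotypes were compared: Control (non-targeting siRNA), FoxK1 KD, FoxK2 KD and DKD, in which both forkhead factors were knocked down. All cells were starved of serum overnight and then either left without insulin (basal) or stimulated with 100 nM insulin for 6 h, so serum starvation and transfection are shared by all 8 groups. Each basal group had 4 samples, as had FoxK1 KD and FoxK2 KD cells after insulin, while Control and DKD cells after insulin had 3 each. The labels do not say that the 30 samples came from separate experiments, so p-values measure the spread between these samples only. The design asks which genes respond to loss of FoxK1, FoxK2 or both, which respond to insulin, and whether the insulin response changes with the knockdown.

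Levels are given in CPM (counts scaled to a common library size adjusted by the TMM method), and differences as log2 fold changes from edgeR, written with their standard error (SE). A gene was called changed at an adjusted p below 0.05 over all 11368 genes, with no fold minimum. Library totals on genes lay between 2141460 and 5668270 reads. In basal cells the mean Foxk1 level in FoxK1 KD and DKD cells was 45.2% and 57.1% of Control, and the mean Foxk2 level in FoxK2 KD and DKD cells was 33.7% and 35.8%, so both knockdowns were partial. After insulin these values were, in the same order, 58.2%, 64.6%, 40.4% and 39.5% of insulin-stimulated Control. Foxk2 was also called lower in FoxK1 KD cells at basal (log2 fold change -0.26, adjusted p = 0.0487). Foxk1 fell with insulin in Control cells (-0.62, adjusted p = 0.00037), a comparison that crosses the divide described below. Of 12 hepatocyte markers, Hnf4a (89.6 to 152 CPM), Krt8 and Krt18 were plentiful, but Alb was at 2.5 to 65.2 CPM and Apoa1 and Cps1 were at 0 in at least 1 sample. Of 4 biliary markers, Krt19 (323 to 753 CPM) and Sox9 (168 to 296 CPM) were also present. Krt7 was lower, at 38.9 CPM or less, and Epcam was at 0 in every sample. The summed level of 5 stellate cell or fibroblast markers reached at most 1.39 CPM, of 3 endothelial markers 0.55 CPM and of 3 leukocyte markers 4.43 CPM. These lists were given as levels, and their part in the results below was not tested.

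A pair of features of the libraries has to be kept in view. Control basal replicate 1 lay farthest from the rest of its group, by 0.486 log2 units (root mean square over genes) against at most 0.38 for any other sample, and it had the highest level of its group for 19 of the 34 members (55.9%, against 37.3% of all genes). Moreover, the transcripts Rps2-ps10 and Gm42939 separated 12 samples from the other 18 without overlap. Rps2-ps10 was at 0 to 0.66 CPM in the 12 basal samples of Control, FoxK1 KD and FoxK2 KD cells and at 2.87 to 17.4 CPM in the DKD basal and all insulin-stimulated samples. Comparisons of DKD with Control cells at basal, of insulin with basal in Control, FoxK1 KD and FoxK2 KD cells, and of the insulin response of DKD with that of Control cells cross this divide, so that the divide and the condition cannot be told apart in them. That limit holds for every member called in them below. The insulin responses of FoxK1 KD and FoxK2 KD minus Control cross the divide equally on both sides. The remaining comparisons lie on 1 side of it.

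The members were expressed over a wide range. Per kb of exon, the mean over the 8 groups ran from 0.926 CPM for Tomm40l to 310.3 CPM for Hspa9, with a median of 13.05 CPM per kb. Hspa9, the Hsp70 of the motor, was followed by the chaperonin subunit Hspd1 (247.7 CPM per kb), the receptor Tomm22 (182.9) and the chaperonin cap Hspe1 (67.99). The subunits of the matrix processing peptidase were alike, at 30.99 CPM per kb for Pmpca and 30.9 for Pmpcb. In contrast, the J-type motor subunits Dnajc19 (1.503) and Pam16 (2.921) and the channel subunit Timm23 (3.304) were low. The level of Timm23 is uncertain, since 57.5% of the 50-base stretches of its transcripts also occur in transcripts of other annotated genes, and whether the authors counted reads that map to several places is not stated. The same holds for Hspd1 (42.1%), Timm8a1 (41.0%), Pam16 (35.7%), Tomm40l (56.3%) and Tomm6 (72.8%), whereas Pmpcb, Timm44, Timm50 and Tomm70a share none. For Tomm40l and Tomm6, exons of other genes at the same place overlap 64.3% and 84.2% of the exon bases. How reads in such overlaps were assigned is not stated either.

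**Figure D1:**
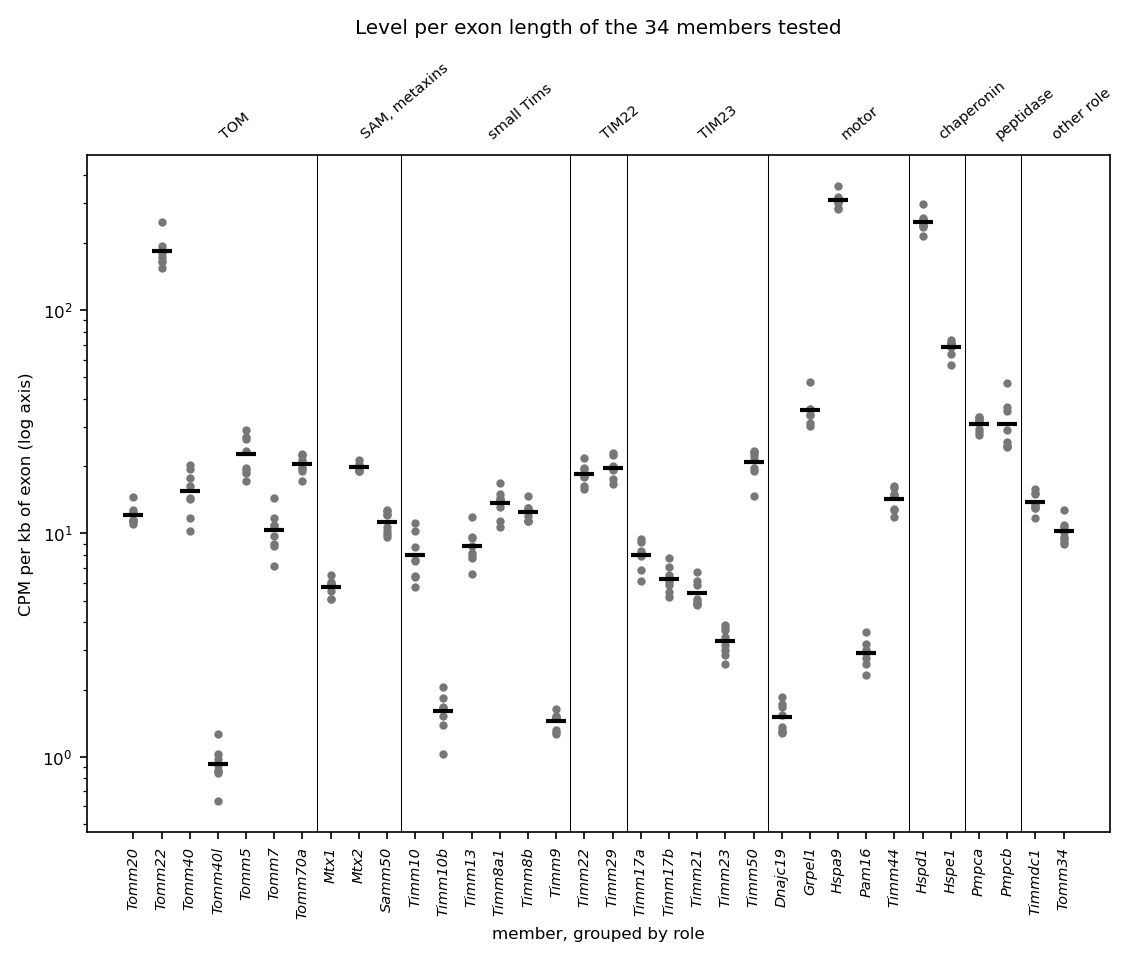
Level of the 34 members tested in CPM per kb of exon (log axis), grouped by role; grey points are the 8 group means and black bars the mean over groups. Hspa9, Hspd1 and Tomm22 stand above 100 CPM per kb in every group, and the group means of each member lie close together beside the spread between members.

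Across the 8 groups the levels were steady: the highest group mean of a member exceeded its lowest by 1.12-fold (Mtx2) to 2.02-fold (Tomm7), with a median of 1.43-fold, and 15 of the 34 members varied by 1.5-fold or more. Such folds include sampling noise in low genes such as Tomm7, whose mean was 11.61 CPM. In RNA from whole cultures, fewer cells of a type and less RNA per cell cannot be told apart.

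Promoter windows were looked at because FoxK1 and FoxK2 bind DNA and because several members differed between groups. RefSeq windows of 300 bases (250 before to 50 after the annotated start, build GRCm38.p6) were found for 33 of the 37 members. Each gene was counted with 1 window, the first listed, also where several starts are annotated. The forkhead core GTAAACA, searched on both strands, was in 0 of these 33 windows and in 3.55% of the 27025 gene windows of that table. The shorter TAAACA, contained in it, was in the windows of Tomm22 and Timm17a (6.06% of members, against 13.4% of all windows). The FoxK motif that the paper proposes is looser than GTAAACA, since its G may also be A and its C may be T. It further asks for A or T in front. That looser motif was not searched, so the 0 for GTAAACA does not cover it. The stretch AATAAACA in the Tomm22 window printed below fits it. An ETS-type core, CCGGAAGT, was in 9 member windows (27.3%, against 4.0%), among them Pmpcb, Tomm70a, Mtx2 and Timm23. The E-box CACGTG was in 6 (18.2%, against 7.24%), the nuclear respiratory factor 1 core GCATGCGC in Grpel1 and Timm13 (6.06%, against 2.8%) and the heat shock core GAANNTTC in Hspe1 and Timm9 (6.06%, against 7.95%). The CCAAT box was in 11 (33.3%, against 37.9%), and the window of Tomm40 held 5 copies, as many or more being found in 0.285% of all windows. The windows of all genes were not filtered for expression, gene type or GC content, so they are not matched to the members. These matches are letters in a window and not shown to be bound. The 5 windows below belong to members whose levels are followed through the results, with capitals for the match named.
Tomm22, chr15:79670618-79670917, plus strand, TAAACA in capitals: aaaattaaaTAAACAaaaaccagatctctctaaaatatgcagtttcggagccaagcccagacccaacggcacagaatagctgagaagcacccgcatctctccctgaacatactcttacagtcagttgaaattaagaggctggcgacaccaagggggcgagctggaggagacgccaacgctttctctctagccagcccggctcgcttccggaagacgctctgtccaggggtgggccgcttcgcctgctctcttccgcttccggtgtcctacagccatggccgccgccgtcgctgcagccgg
Tomm40, chr7:19715380-19715679, minus strand, CCAAT in capitals: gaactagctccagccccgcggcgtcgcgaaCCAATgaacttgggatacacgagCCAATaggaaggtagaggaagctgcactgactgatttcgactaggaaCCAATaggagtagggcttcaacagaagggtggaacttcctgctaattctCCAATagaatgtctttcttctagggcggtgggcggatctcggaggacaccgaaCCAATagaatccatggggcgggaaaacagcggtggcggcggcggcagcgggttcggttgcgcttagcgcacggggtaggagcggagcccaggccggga
Grpel1, chr5:36464935-36465234, plus strand, GCATGCGC (read on the other strand) in capitals: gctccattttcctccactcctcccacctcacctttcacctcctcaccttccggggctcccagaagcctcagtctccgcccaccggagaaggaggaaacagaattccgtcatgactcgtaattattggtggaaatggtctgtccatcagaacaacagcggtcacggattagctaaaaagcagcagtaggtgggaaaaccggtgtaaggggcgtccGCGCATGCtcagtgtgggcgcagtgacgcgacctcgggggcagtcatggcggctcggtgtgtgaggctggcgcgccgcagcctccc
Pmpcb, chr5:21736910-21737209, plus strand, CCGGAAGT in capitals: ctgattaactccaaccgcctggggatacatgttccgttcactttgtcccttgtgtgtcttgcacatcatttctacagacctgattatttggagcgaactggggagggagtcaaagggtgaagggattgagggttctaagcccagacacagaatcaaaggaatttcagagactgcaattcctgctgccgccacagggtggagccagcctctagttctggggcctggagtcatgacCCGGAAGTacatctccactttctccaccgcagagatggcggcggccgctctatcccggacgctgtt
Hspe1, chr1:55087898-55088197, plus strand, GAANNTTC in capitals: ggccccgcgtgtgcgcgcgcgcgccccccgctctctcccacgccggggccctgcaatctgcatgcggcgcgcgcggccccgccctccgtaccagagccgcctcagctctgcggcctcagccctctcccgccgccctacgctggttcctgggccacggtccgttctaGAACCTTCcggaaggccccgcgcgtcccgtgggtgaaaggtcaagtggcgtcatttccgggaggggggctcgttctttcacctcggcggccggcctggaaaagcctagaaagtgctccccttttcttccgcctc

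At most 7 of the 34 members were called in a knockdown comparison. FoxK1 KD cells at basal had 6 called members, 1 up (Tomm20) and 5 down (Grpel1, Tomm40, Timm50, Tomm22 and Pmpcb), or 17.6% of the 34, where 8.09% of all genes were called. Called or not, 25 of the 34 had a negative value in that comparison and 9 a positive one. DKD cells at basal had 7, of which Timm17b and Tomm34 rose and Pmpcb, Tomm22, Grpel1, Hspe1 and Tomm70a fell, or 20.6% where 21.1% of all genes were called. In FoxK2 KD cells at basal 0 members were called by edgeR, with 7 at an unadjusted p below 0.05, 0 by DESeq2 and 0 by limma-voom, and 0.378% of all genes were called. The median log2 fold change of the members was -0.09 in FoxK1 KD, -0.03 in FoxK2 KD and -0.03 in DKD cells, beside -0.01, -0.01 and -0.00 over all genes. These 3 comparisons share the 4 Control basal samples.

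After insulin, when there were 3 Control samples, 2 members fell in FoxK1 KD cells, Hspa9 and Hspd1 (5.88%), against 3.59% of all genes called. In FoxK2 KD cells 0 members were called by edgeR, DESeq2 or limma-voom, with 4 at an unadjusted p below 0.05, and 0.0264% of all genes were called. In DKD cells edgeR and limma-voom called 0 members and DESeq2 called 1 (Hspa9), where edgeR called 1.21% of all genes. An unadjusted p below 0.05 in edgeR was found for 3 members and for 1449 of all genes. Between insulin and basal in Control cells 8 members were called (Tomm5, Tomm40, Samm50, Hspd1 and Hspa9 up, Pmpcb, Tomm22 and Timm44 down), or 23.5%, against 25.4% of all genes. In FoxK1 KD cells 6 were called (Tomm40, Tomm5, Timm50 and Pmpca up, Pmpcb and Tomm20 down), or 17.6% against 31.6%. In FoxK2 KD cells 5 were called (Tomm40, Timm17a, Tomm5 and Samm50 up, Pmpcb down), or 14.7% against 28.1%. In DKD cells 3 were called (Timm8a1 up, Timm44 and Timm21 down), or 8.82% against 16.3%. An insulin response different from that of Control cells was called in 0 members for FoxK1 KD and 0 for FoxK2 KD. Both were also at 0 by DESeq2 and limma-voom, with 0.0% of all genes called by edgeR in each. An unadjusted p below 0.05 in edgeR was found for 7 members and 1519 of all genes for the FoxK1 KD response. For the FoxK2 KD response it was found for 3 members and 625 of all genes. For the DKD response 1 member (2.94%), Tomm22, was called, against 1.54% of all genes.

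**Figure D2:**
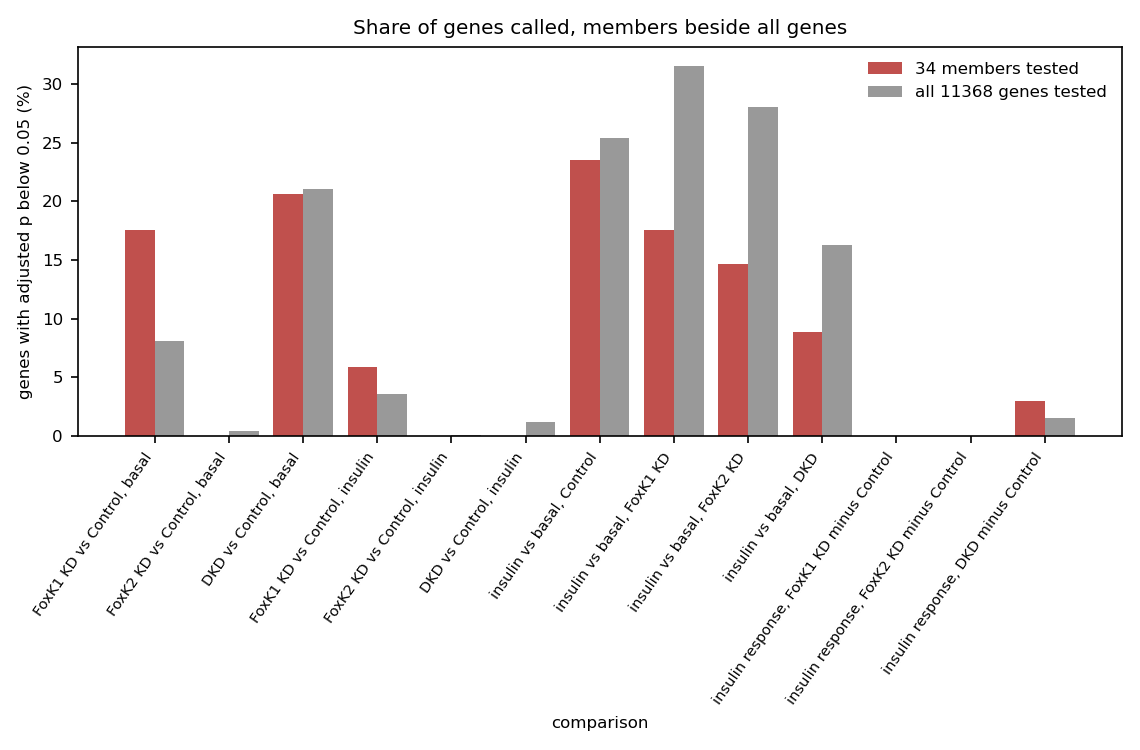
Share (%) of the 34 members and of all 11368 genes tested with an adjusted p below 0.05 (edgeR) in each of 13 comparisons. The share of members lies above that of all genes for FoxK1 KD at basal (17.6% against 8.09%) and after insulin (5.88% against 3.59%) and for the DKD response (2.94%, 1 member, against 1.54%), and below it for insulin in FoxK1 KD, FoxK2 KD and DKD cells.

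**Figure D3:**
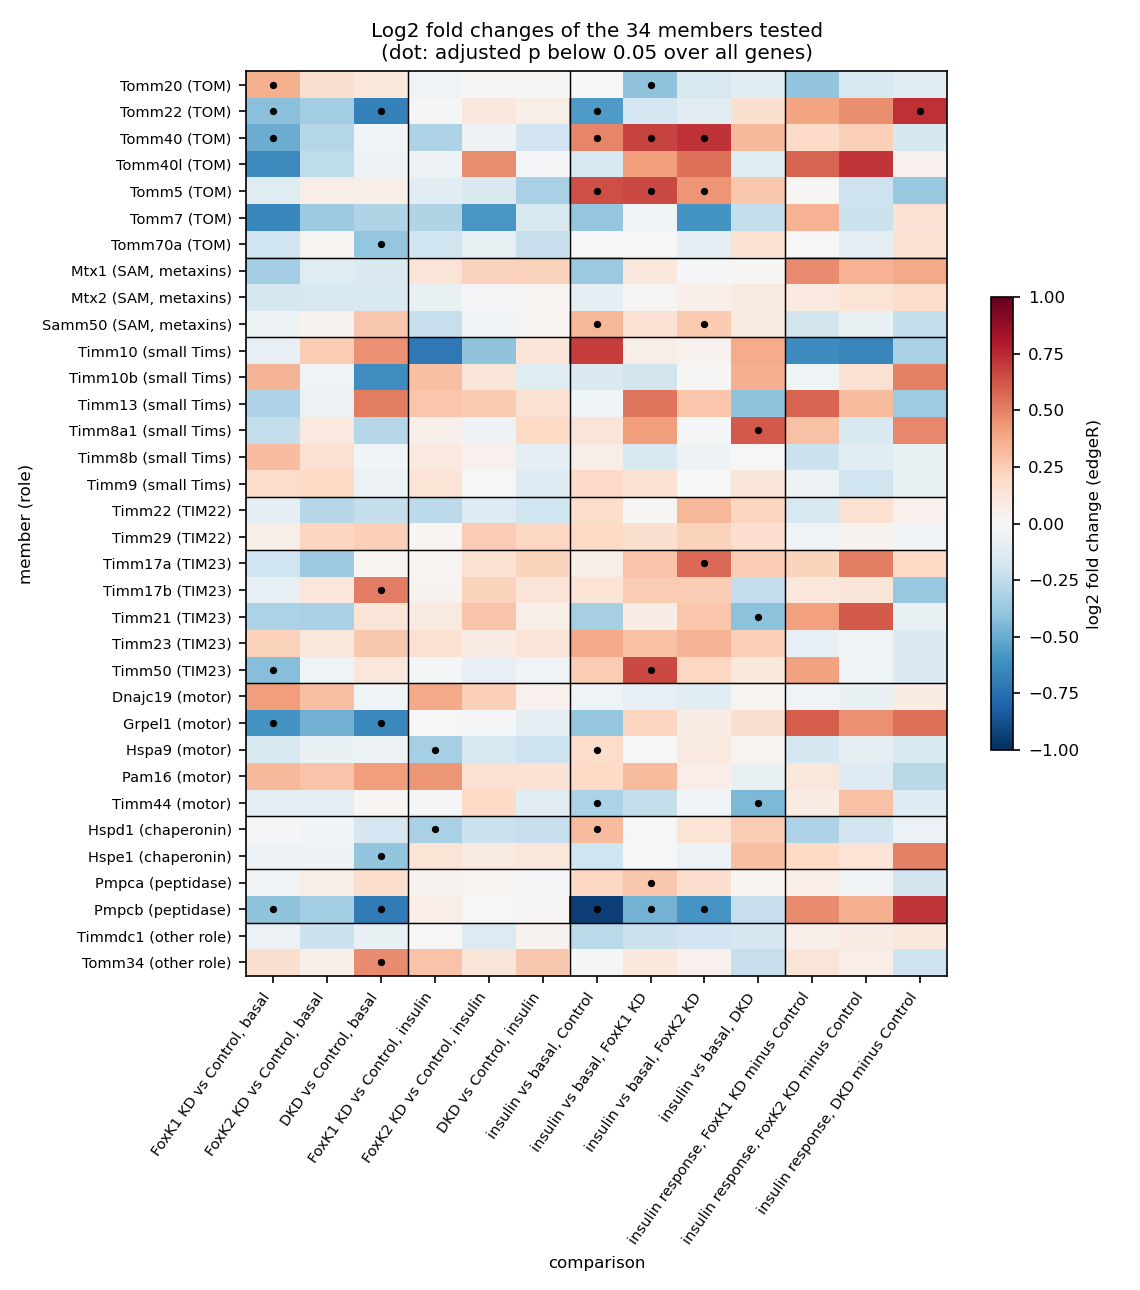
Log2 fold change (colour, edgeR) of the 34 members tested, grouped by role, in 13 comparisons; a dot marks an adjusted p below 0.05 over all genes. Tomm40 and Tomm5 carry dots under insulin in Control, FoxK1 KD and FoxK2 KD cells, and Pmpcb in the same 3 with the opposite sign. These 3 comparisons cross the divide marked by Rps2-ps10.

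The receptor Tomm22 had its highest levels in Control basal cells. The 4 Control samples were at 476, 327, 353 and 472 CPM, FoxK1 KD at 323, 366, 243 and 289, FoxK2 KD at 279, 351, 319 and 332, and DKD at 217, 241, 286 and 278. All DKD samples were below all Control samples, while the single knockdowns overlapped with Control. Tomm22 fell by 0.67 on the log2 scale in DKD (SE 0.123, adjusted p = 0.000195) and by 0.42 in FoxK1 KD (SE 0.122, adjusted p = 0.0295), and the value in FoxK2 KD was -0.35 (SE 0.121, adjusted p = 0.227). Without Control basal replicate 1 the DKD value was -0.60 (adjusted p = 0.000474) and the FoxK1 KD value -0.33 (adjusted p = 0.133) and no longer called. The FoxK1 KD call was also lost without Control basal replicate 4 or FoxK1 KD basal replicate 3 or 4 (-0.39 to -0.32, adjusted p = 0.0805 to 0.126).

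After insulin no knockdown was called for Tomm22. Control samples were at 322, 230 and 269 CPM, FoxK1 KD at 233, 287, 304 and 256, FoxK2 KD at 266, 308, 298 and 318, and DKD at 295, 306 and 258. All 4 groups overlapped. Tomm22 fell with insulin in Control cells (log2 fold change -0.57, SE 0.134, adjusted p = 0.00162, no overlap of samples), and the value in DKD cells was 0.16 (SE 0.134, adjusted p = 0.447, with overlap). The difference between these responses, DKD minus Control, was 0.73 (SE 0.188, adjusted p = 0.0384). It was 0.65 without Control basal replicate 1 (adjusted p = 0.0418). The call was lost when any of 7 samples was left out (Control basal replicate 4, DKD basal replicates 1 and 2, Control insulin replicates 2 and 3, DKD insulin replicates 1 and 2), with adjusted p-values up to 0.145, and in a fit of only these 4 groups (0.73, adjusted p = 0.149).

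Tomm40, the channel of the outer membrane, rose with insulin in Control, FoxK1 KD and FoxK2 KD cells. These 3 comparisons cross the divide marked by Rps2-ps10, and its part cannot be told apart from insulin. In Control cells the basal samples were at 75.7, 52.3, 62.0 and 69.8 CPM and the insulin samples at 110.0, 87.9 and 74.5. In FoxK1 KD cells the basal samples were at 51.4, 52.1, 39.5 and 41.7 CPM and the insulin samples at 71.7, 72.4, 66.5 and 84.3. In FoxK2 KD cells they were at 44.1, 50.8, 56.8 and 60.2 CPM, and after insulin at 92.8, 85.5, 98.6 and 75.0. Only in Control cells did a basal sample (75.7) lie above an insulin sample (74.5) among these 3 genotypes. The log2 fold changes were 0.49 in Control (SE 0.132, adjusted p = 0.00568), 0.68 in FoxK1 KD (SE 0.133, adjusted p = 0.000174) and 0.72 in FoxK2 KD cells (SE 0.125, adjusted p = 3.62e-05). The Control value was 0.31 and not called without Control insulin replicate 1 (adjusted p = 0.119).

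DKD samples were at 67.8, 60.8, 70.8 and 57.5 CPM of Tomm40 at basal and at 90.0, 80.5 and 69.2 after insulin. The samples overlapped, and the log2 fold change was 0.32 (SE 0.136, adjusted p = 0.105). This comparison does not cross the divide. The difference from the Control response, -0.17 (SE 0.19, adjusted p = 0.759), did not pass the test. At basal Tomm40 fell in FoxK1 KD cells, with all 4 samples under the lowest Control sample (log2 fold change -0.50, SE 0.129, adjusted p = 0.0146), but without Control basal replicate 1 the value was -0.42 and no longer called (adjusted p = 0.0671). The same held without FoxK1 KD basal replicate 3 or 4 (-0.42 and -0.45, adjusted p = 0.0607 and 0.0556). Tomm40 was not called in DKD cells at basal (-0.02, SE 0.127).

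Tomm5, a small subunit of the TOM complex, followed a like course at a lower level. Its calls were likewise in insulin comparisons that cross the divide. The Control samples were at 18.4, 15.2, 13.9 and 17.0 CPM at basal and at 30.1, 25.9 and 19.5 after insulin. They did not overlap, and the log2 fold change was 0.65 (SE 0.162, adjusted p = 0.00297). It was 0.66 in FoxK1 KD (SE 0.162, adjusted p = 0.00205) and 0.44 in FoxK2 KD cells (SE 0.151, adjusted p = 0.027), both without overlap, while the DKD value of 0.27 was not called (SE 0.172, adjusted p = 0.312). Without Control insulin replicate 1 the Control value was 0.48 (adjusted p = 0.0562), and the FoxK2 KD call was lost in 5 of 8 fits that left out a sample (basal replicates 1 and 3, insulin replicates 2, 3 and 4).

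Of the other receptors, Tomm20 was higher in FoxK1 KD cells at basal: 71.5, 74.6, 74.3 and 66.1 CPM against 51.9, 55.8, 55.3 and 60.5 in Control. No samples overlapped, the log2 fold change was 0.35 (SE 0.0867, adjusted p = 0.00953), and it was 0.33 without Control basal replicate 1 (adjusted p = 0.0301). Tomm20 fell with insulin in FoxK1 KD cells, a comparison that crosses the divide, to 57.6, 59.0, 49.5 and 50.9 CPM (log2 fold change -0.40, SE 0.0911, adjusted p = 0.00102), and the value in Control cells was -0.01. The difference of the responses was -0.39 and not called (SE 0.133, adjusted p = 0.226). Tomm70a, the receptor for carrier precursors, stood at 160, 177, 159 and 173 CPM in DKD against 260, 218, 215 and 186 in Control cells at basal. The groups were apart, with a log2 fold change of -0.39 (SE 0.0946, adjusted p = 0.00328). The call was lost with the GC content and length trend taken out (-0.11, adjusted p = 0.576). Tomm7 and Tomm40l were called in no comparison.

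**Figure D4:**
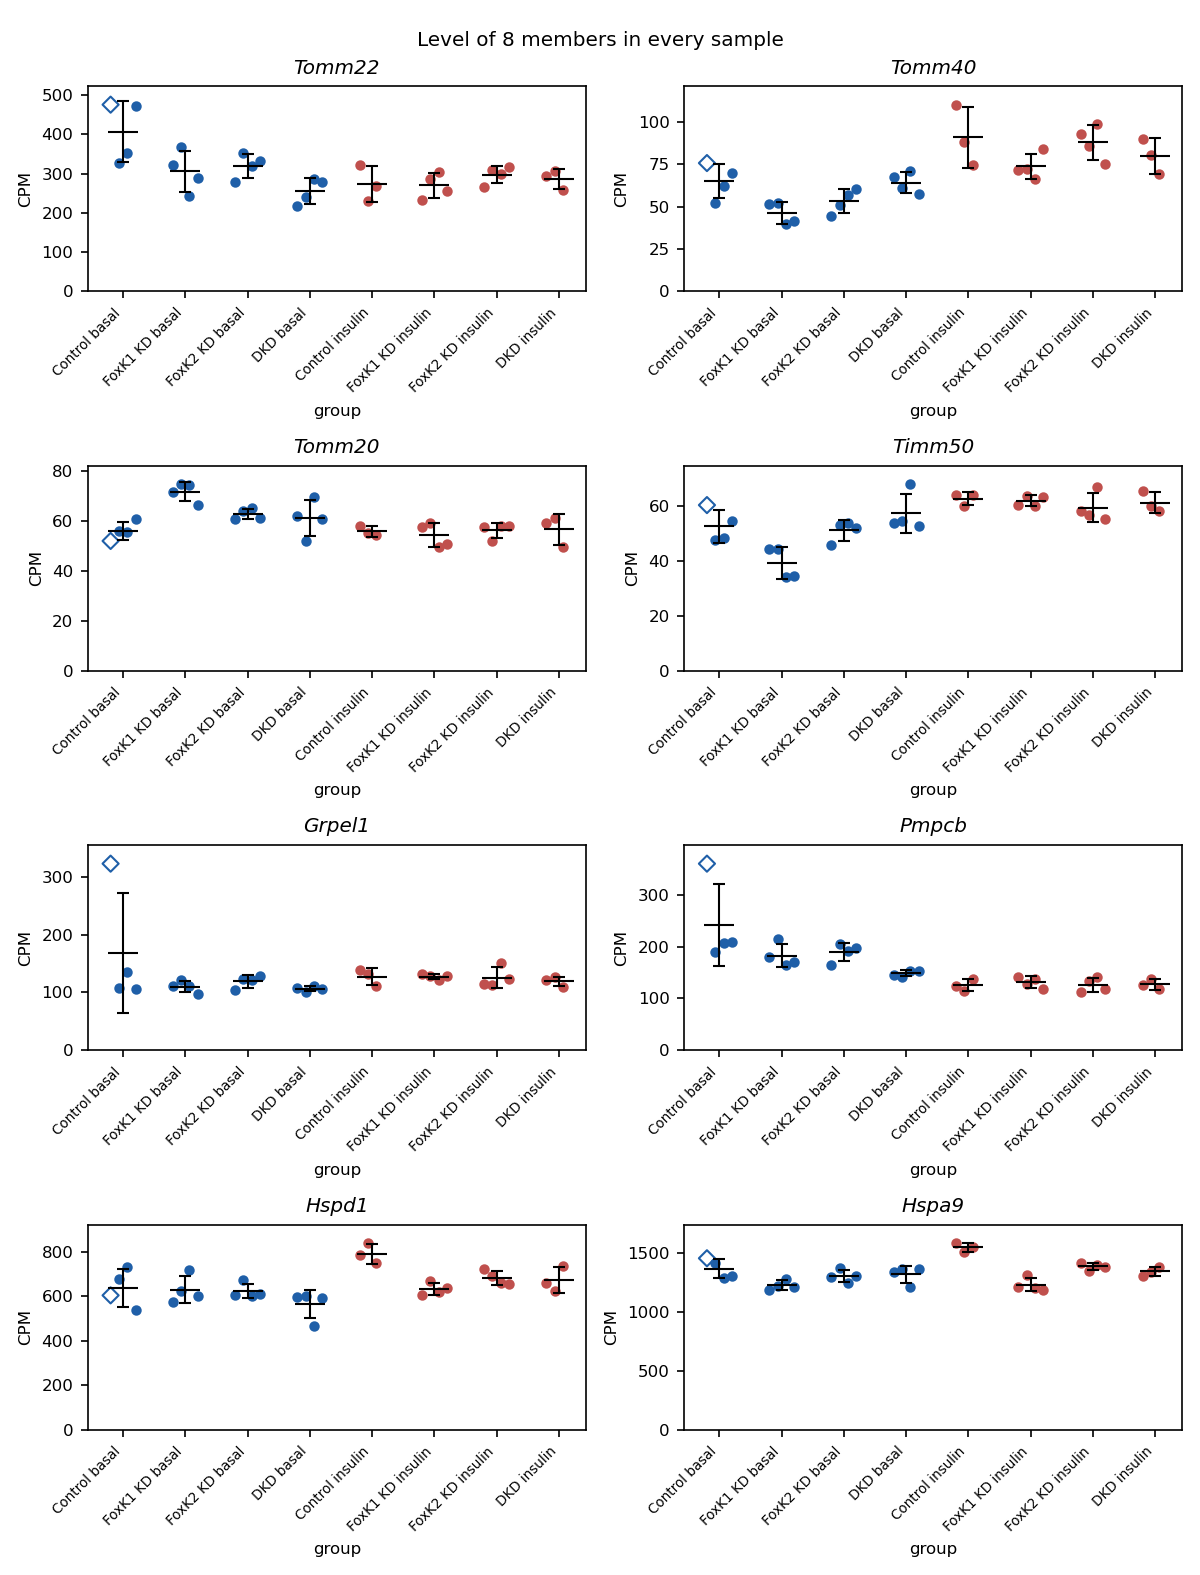
CPM of 8 members in every sample of the 8 groups (blue basal, red insulin), with the group mean and SD in black and Control basal replicate 1 as an open diamond. Grpel1 and Pmpcb are highest in that sample (323 and 360 CPM), and Tomm20 is above all Control samples in FoxK1 KD basal cells.

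In the SAM complex and the metaxins, which insert outer membrane proteins, Samm50 was called with insulin in Control cells, from 60.4, 62.8, 67.2 and 70.5 to 81.5, 96.4 and 68.8 CPM. The groups overlapped (log2 fold change 0.33, SE 0.111, adjusted p = 0.0257), and the call was lost without Control basal replicate 2 or Control insulin replicate 1 or 2 (0.22 to 0.33, adjusted p = 0.0528 to 0.213). It was also called in FoxK2 KD cells (0.27, SE 0.102, adjusted p = 0.0496, lost in 7 of 8 fits that left out a sample, all but that without insulin replicate 4), while the values in FoxK1 KD (0.15) and DKD cells (0.09) were not. Mtx1 and Mtx2 were called in no comparison, and Mtx2 varied least of all members between groups.

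Among the 6 small Tim chaperones tested, which shield hydrophobic proteins in the intermembrane space, there was 1 call in 13 comparisons. Timm8a1 rose with insulin in DKD cells, from 16.6, 14.2, 13.4 and 16.7 to 22.9, 26.3 and 22.1 CPM (log2 fold change 0.61, SE 0.185, adjusted p = 0.0204, no overlap). The difference from the Control response was 0.48 and not called (SE 0.257, adjusted p = 0.386). The call was lost without DKD basal replicate 2 or 3 or DKD insulin replicate 2 (0.54 to 0.57, adjusted p = 0.053 to 0.0848), and 41.0% of the 50-base stretches of Timm8a1 are shared with Gm9797. Their levels ran from 1.439 CPM per kb for Timm9 to 13.69 for Timm8a1. Timm10 had a value of 0.69 with insulin in Control cells but a wide error (SE 0.279, adjusted p = 0.0644). Timm9, Timm10, Timm10b, Timm13 and Timm8b were called in no comparison. Timm22, the channel of the carrier translocase, and its partner Timm29 were called in no comparison. Their levels were alike, at 18.41 and 19.7 CPM per kb. Without Control basal replicate 1, Timm22 was called with insulin in Control cells (0.35, adjusted p = 0.0393).

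In the TIM23 complex, the receptor Timm50 fell in FoxK1 KD cells at basal to 44.4, 44.6, 34.1 and 34.5 CPM, below the Control samples at 60.4, 47.5, 48.4 and 54.6 CPM (log2 fold change -0.42, SE 0.102, adjusted p = 0.00878). The value was -0.35 without Control basal replicate 1 (adjusted p = 0.0447). With insulin it rose in these cells to 60.6, 63.8, 60.1 and 63.5 CPM (log2 fold change 0.66, SE 0.105, adjusted p = 1.26e-05), all within the range of the 3 insulin-stimulated Control samples (60.0 to 64.1 CPM). The difference from the Control response of 0.25 was 0.41 and not called (SE 0.15, adjusted p = 0.26). Without Control basal replicate 1 the Control response was 0.32 and called (adjusted p = 0.024), and the difference was 0.33 (adjusted p = 0.497).

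The channel subunit Timm23, often used as a marker of the inner membrane, was called in no comparison. Its level ran from 3.5 to 5.46 CPM in Control basal cells, 3.45 to 7.7 CPM in DKD basal cells, 5.66 to 6.64 CPM in Control and 5.08 to 8.9 CPM in DKD cells after insulin, so that the groups overlapped but for the Control pair. At these counts the SE of its log2 fold changes was 0.272 to 0.425, and a change of the size seen for Timm50 was not detectable. Timm17b, an alternative channel partner, was at 19.8, 18.0, 18.5 and 23.4 CPM in DKD and at 14.7, 9.75, 16.6 and 15.0 CPM in Control cells at basal (log2 fold change 0.51, SE 0.189, adjusted p = 0.0494, no overlap). That call was lost in 6 of 8 fits that left out a sample (0.38 to 0.55, adjusted p up to 0.176), being kept only without Control basal replicate 1 or 3. Its close relative Timm17a rose with insulin in FoxK2 KD cells, from 46.3, 46.8, 50.8 and 49.2 to 62.0, 72.6, 81.9 and 71.2 CPM (log2 fold change 0.57, SE 0.144, adjusted p = 0.00316). Timm21 fell with insulin in DKD cells (log2 fold change -0.41, SE 0.139, adjusted p = 0.0407), and this call was lost in 5 of 7 fits that left out a sample (DKD basal replicates 1, 2 and 3, DKD insulin replicates 1 and 2), with adjusted p-values up to 0.227.

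Hspa9, the Hsp70 that drives import, had the highest level per kb. Control samples were at 1452, 1414, 1286 and 1302 CPM at basal and at 1580, 1504 and 1549 CPM after insulin, a small rise without overlap (log2 fold change 0.18, SE 0.0678, adjusted p = 0.0478). It was not called without Control basal replicate 3 or 4 or Control insulin replicate 1 or 3. FoxK1 KD samples were at 1180, 1219, 1279 and 1212 CPM at basal and at 1211, 1310, 1204 and 1184 CPM after insulin, with a log2 fold change of 0.01. Already at basal all FoxK1 KD samples were below all Control samples, a difference that DESeq2 called and edgeR did not. Without Control basal replicate 1 that basal value was -0.12 in edgeR (adjusted p = 0.337). After insulin Hspa9 was lower in FoxK1 KD than in Control cells (log2 fold change -0.33, SE 0.0679, adjusted p = 0.00317), and this call was kept whichever sample was left out. The difference between the insulin responses was -0.17 and not called (SE 0.0928, adjusted p = 0.412). All FoxK2 KD and DKD samples were also below the 3 Control samples after insulin, at 1347 to 1413 and 1305 to 1377 CPM, but with values of -0.16 (adjusted p = 0.774) and -0.20 (adjusted p = 0.18) that edgeR did not call.

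Grpel1, the nucleotide exchange factor of that Hsp70, stood out in 1 library. The Control basal samples were at 323, 108, 136 and 106 CPM, and every other sample of the study lay between 97.4 and 152 CPM. FoxK1 KD samples were at 111, 122, 112 and 97.4 CPM and DKD samples at 108, 102, 112 and 107 CPM, so both overlapped with the lower Control samples. The called log2 fold changes of -0.60 in FoxK1 KD (SE 0.191, adjusted p = 0.045) and -0.65 in DKD (SE 0.194, adjusted p = 0.0149) became -0.08 (adjusted p = 0.76) and -0.14 (adjusted p = 0.33) without Control basal replicate 1. The FoxK1 KD call was also lost without any 1 of the FoxK1 KD samples (-0.64 to -0.54, adjusted p = 0.074 to 0.12). Timm44, which tethers the motor to the channel, fell with insulin in DKD cells, from 53.7, 62.8, 62.5 and 59.0 to 45.6, 37.9 and 46.0 CPM (log2 fold change -0.45, SE 0.117, adjusted p = 0.00702, no overlap). It was -0.38 and not called without DKD insulin replicate 2 (adjusted p = 0.0552). In Control cells the log2 fold change was -0.32 (SE 0.115, adjusted p = 0.0387), with overlap, and the call was lost without Control basal replicate 3 or Control insulin replicate 1 or 3 (-0.25 to -0.20, adjusted p = 0.139 to 0.263). Pam16 and Dnajc19 were called in no comparison.

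Hspd1 and Hspe1 are neighbours on chromosome 1, read in opposite directions. The start of Hspe1 (55088148, plus strand) lies between 2 annotated starts of Hspd1 on the minus strand (55087932 and 55088243), so the Hspe1 window printed above holds the first of these too. Their values differed in sign with insulin in Control cells; the difference between them was not tested. Hspd1 rose with insulin in Control cells, from 604, 676, 730 and 537 to 786, 838 and 749 CPM (log2 fold change 0.31, SE 0.0941, adjusted p = 0.0125, no overlap), while Hspe1 went from 106, 99.8, 122 and 107 to 111, 90.1 and 80.8 CPM (log2 fold change -0.20, SE 0.138, adjusted p = 0.298). The Hspd1 value was 0.24 without Control basal replicate 4 and 0.28 without Control insulin replicate 2, neither called (adjusted p = 0.0616 and 0.057). The ratio of Hspd1 to Hspe1 CPM was 5.88 ± 0.73 (SD, n = 4) in Control basal cells and 8.55 ± 1.29 (SD, n = 3) after insulin, and in the other 6 groups its mean was between 6.0 and 7.0.

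At basal Hspe1 was at 69.8, 75.0, 101 and 87.3 CPM in DKD cells, with 1 sample within the Control range (log2 fold change -0.39, SE 0.129, adjusted p = 0.0272). The call was lost without Control basal replicate 3 or DKD basal replicate 1 or 2 (-0.36 to -0.32, adjusted p = 0.0808 to 0.112). Hspd1 was at 599, 602, 468 and 592 CPM in the same DKD samples (-0.17, SE 0.0879, adjusted p = 0.173). After insulin Hspd1 was lower in FoxK1 KD cells, at 605, 670, 619 and 638 CPM against at least 749 CPM in Control (log2 fold change -0.32, SE 0.0945, adjusted p = 0.0484). That call was lost in each of the 7 fits that left out a sample. Transcripts of 10 other annotated genes share 50-base stretches with Hspd1 and of 7 with Hspe1, including each other, so both levels are uncertain.

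Pmpcb, the catalytic subunit of the peptidase, was the only member that separated the 12 basal samples of Control, FoxK1 KD and FoxK2 KD cells from the other 18, being higher in all 12, as 83 of the 11368 genes tested were. Control basal samples were at 360, 190, 207 and 210 CPM and DKD basal samples at 146, 142, 154 and 153 CPM. The insulin-stimulated samples of all genotypes were between 112 and 142 CPM. Pmpcb fell in DKD cells at basal (log2 fold change -0.70, SE 0.128, adjusted p = 0.000206) and with insulin in Control (-0.94, SE 0.142, adjusted p = 5.34e-06), FoxK1 KD (-0.47, SE 0.132, adjusted p = 0.00605) and FoxK2 KD cells (-0.59, SE 0.129, adjusted p = 0.000721). These 4 comparisons cross the divide marked by Rps2-ps10, and its part cannot be told apart from the knockdown or from insulin. Without Control basal replicate 1 the first pair of values was -0.45 (adjusted p = 0.000409) and -0.69 (adjusted p = 2.08e-06).

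In comparisons that do not cross the divide, insulin in DKD cells gave a Pmpcb value of -0.23 (SE 0.143, adjusted p = 0.29, no overlap), and the FoxK1 KD value at basal of -0.40 (SE 0.126, adjusted p = 0.0414) became -0.15 without Control basal replicate 1 (adjusted p = 0.432). Pmpca, the subunit that recognises presequences, rose with insulin in FoxK1 KD cells, from 103, 129, 128 and 112 to 143, 137, 148 and 143 CPM (log2 fold change 0.27, SE 0.0863, adjusted p = 0.0145, no overlap), a call lost without FoxK1 KD basal replicate 1. Its values in Control (0.20) and FoxK2 KD cells (0.17) were not called. Without Control basal replicate 1 the Pmpca value in Control cells was 0.305 and called (adjusted p = 0.00643). Of the members with another main role, the cytosolic cochaperone Tomm34 rose in DKD cells at basal, to 43.6, 32.0, 43.0 and 36.2 CPM from 30.9, 27.0, 27.0 and 26.1 (log2 fold change 0.48, SE 0.128, adjusted p = 0.00696, no overlap), and the complex I assembly factor Timmdc1 was called in no comparison.

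**Figure D5:**
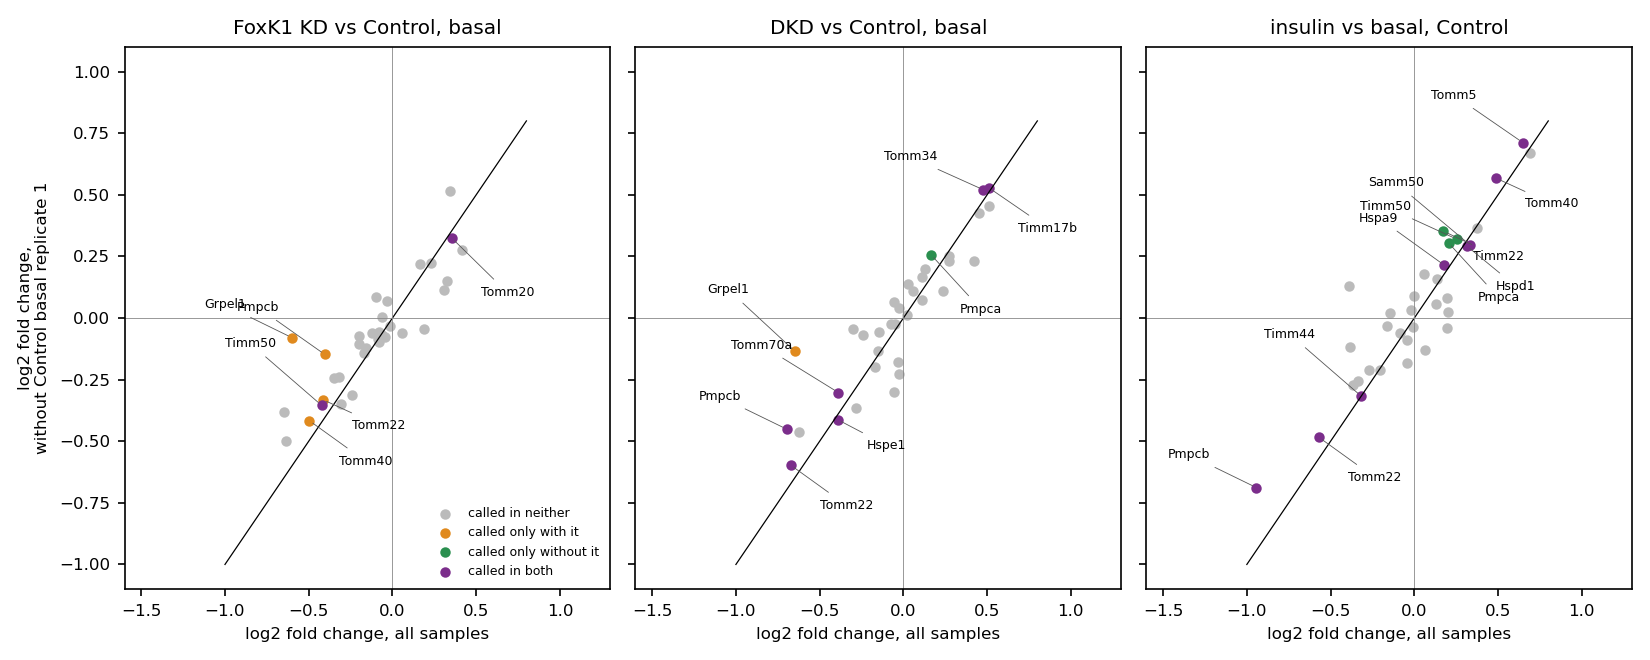
Log2 fold changes (edgeR) of the 34 members with all samples (x axis) and without Control basal replicate 1 (y axis) in 3 comparisons; the line marks equal values and colours mark calls at an adjusted p below 0.05. Grpel1 leaves the line most, from -0.60 to -0.08 in FoxK1 KD cells, while Tomm22, Pmpcb, Tomm34, Timm17b, Hspe1 and Tomm70a are called in both fits in DKD cells.

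With Control basal replicate 1 left out, 2 members were called in FoxK1 KD cells at basal (Timm50 and Tomm20), where 3.59% of all genes were called, and 7 in DKD cells, where Pmpca replaced Grpel1 and 27.0% of all genes were called. Leaving out FoxK1 KD basal replicate 3 or 4 likewise left Timm50 and Tomm20 as the called members in FoxK1 KD cells. A fit of the FoxK1 KD and Control basal groups by themselves called 0 members and 46 genes in all. For insulin in Control cells, the fit without Control basal replicate 1 called 11 members, against 8 with all samples. It added Pmpca, Timm22 and Timm50, and 25.5% of all genes were called in it, against 25.4% with all samples.

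Other genes of the pathway, listed by function, were taken with the same fits. Of 19 further import, sorting and processing genes, 3 rose and 3 fell in DKD cells at basal, where 21.1% of all genes were called, and 1 rose and 2 fell with insulin in Control cells, where 25.4% were. Gfer, the oxidase that recharges the import receptor for small Tims, rose in DKD (log2 fold change 0.61, SE 0.128, adjusted p = 0.000784), and Immp1l, a subunit of the inner membrane peptidase, fell (-0.75, SE 0.225, adjusted p = 0.0149). Oxa1l, the insertase for proteins made inside the matrix, fell with insulin in Control (-0.48, SE 0.113, adjusted p = 0.00184) and DKD cells (-0.45, SE 0.114, adjusted p = 0.00512). Of 8 proteases, 1 rose and 1 fell with insulin in Control, 2 and 2 in FoxK1 KD, 1 and 1 in FoxK2 KD and 0 and 1 in DKD cells, where 25.4%, 31.6%, 28.1% and 16.3% of all genes were called. The protease Lonp1 rose in Control (0.45, SE 0.101, adjusted p = 0.00118), FoxK1 KD (0.48) and FoxK2 KD cells (0.58), and Clpx, the ATPase partner of the protease Clpp, fell in the same 3 (-0.30, -0.24 and -0.42). Clpp rose (0.49) and Afg3l2 fell (-0.27) in FoxK1 KD cells, and Htra2 fell in DKD cells (-0.42). Of 11 regulators of mitochondrial biogenesis and stress, 2 rose and 2 fell with insulin in Control, 2 and 2 in FoxK1 KD, 3 and 1 in FoxK2 KD and 2 and 1 in DKD cells, against the same shares of all genes. The growth regulator Myc fell in Control (-0.62), FoxK2 KD (-0.63) and DKD cells (-0.82), the ETS factor subunit Gabpa in Control (-0.34) and FoxK1 KD cells (-0.33) and the coactivator Ppargc1a in FoxK1 KD cells (-0.38), while Ddit3 rose in FoxK2 KD cells (0.67). The stress factors Atf4 and Atf5 rose in all 4 genotypes: Atf5 by 0.80 in Control, 1.20 in FoxK1 KD, 1.20 in FoxK2 KD and 0.66 in DKD cells, and Atf4 by 0.59, 0.78, 0.68 and 0.46 in the same order. Both were lower in FoxK1 KD than in Control cells at basal (Atf5 -0.58, SE 0.155, adjusted p = 0.0178, and Atf4 -0.42, SE 0.109, adjusted p = 0.0155). Of 9 cytosolic heat shock chaperones tested, 1 fell with insulin in each genotype. In Control, FoxK1 KD, FoxK2 KD and then DKD cells, 2, 2, 3 and 4 rose. In the same order 25.4%, 31.6%, 28.1% and 16.3% of all genes were called. Among these chaperones Hsph1 rose (0.34 to 0.51) and Hsp90ab1 fell (-0.49 to -0.23) with insulin in all 4 genotypes.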

How the data were processed

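RNA-seq counts per gene were deposited by the authors for 30 samples. According to the methods and the submitters' processing notes, poly(A) RNA was sequenced, reads were aligned with STAR to mouse GRCm38 and the authors counted them with featureCounts. The annotation, the strand setting and the treatment of reads with several hits are not given in the sources used here. Basal samples are labelled 0 min, while the protocol has them mock treated.

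Counts were tested as deposited with edgeR 4.0.16 (TMM, filterByExpr, quasi-likelihood test) in 1 model of 8 groups, with Benjamini-Hochberg adjustment over the 11368 genes tested. DESeq2 1.42.0, limma-voom (limma 3.58.1), other filters, only the groups compared, a replicate block, a GC content and length correction, an adjusted p below 0.25 (also with a fold above 1.5) and leaving out each sample were alternatives. The scripts were tested on simulated counts. No pair of samples of a group was a copy.

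The members and gene lists were chosen with earlier results of these data known. By the rule for named members, sample values are given for up to 4 called members up and 4 down with the largest fold in FoxK1 KD and DKD at basal, insulin in Control and in DKD cells and the DKD response, and for Tomm22, Timm23, Tomm40, Hspd1 and Hspe1 in any case. Tomm70a, Timm17a, Pmpca and Hspa9 in FoxK1 KD cells were added after their values were seen. Coordinates are GRCm38, and promoter windows are RefSeq GRCm38.p6.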

Additional observations from a re-analysis of the deposited data

Results flagged for a closer look

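In 96 groups of 4 samples of 16 members, 6 samples stood far from the rest of their group. Chance gives about 1 in 20 groups, and 6 in 96 is near that rate. Most of the 16 members were named for calls in these same samples, and the Grpel1 calls were lost without its flagged sample. In Control basal replicate 1, Grpel1 was at 323 CPM, against 106 to 136 CPM in the other 3 samples, and Pmpcb was at 360 CPM, against 190 to 210 CPM. Hspd1 was at 672 CPM in FoxK2 KD basal replicate 2 (602 to 611 CPM in the others) and at 468 CPM in DKD basal replicate 3 (592 to 602 CPM). Timm50 was at 68.0 CPM in DKD basal replicate 3 (52.9 to 54.7 CPM in the others), and Tomm20 at 51.7 CPM in FoxK2 KD insulin replicate 2 (at least 57.3 CPM in the others).

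The insulin response of Tomm22 differed between DKD and Control cells, by a log2 fold change of 0.73 in the interaction term of edgeR (adjusted p = 0.0384). Over the alternative fits with all samples of the groups compared, the adjusted p was 3.18e-05 to 0.149. The call was kept in 7 of 14 fits that left out a sample. This comparison crosses the divide marked by Rps2-ps10, so the divide and the condition cannot be told apart in it.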

How the results depend on the processing

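Of 598 alternative values for the log2 fold changes of named members, 503 kept their direction and side of the threshold, 75 lost the call, 4 gained one and 16 turned sign, none of these called with all samples or under the alternative (lowest adjusted p 0.741). Hspd1 in FoxK1 KD at basal was 0.0185 with the GC content and length trend taken out, a setting under which Timm17b and Tomm70a in DKD at basal (0.39 and -0.11) and Samm50 with insulin in FoxK2 KD (0.21) were no longer called (adjusted p = 0.12 to 0.576). Over fits that left out a sample, the values that turned sign ran from -0.0883 to 0.0585 for Hspd1, -0.184 to 0.0413 for Hspe1 and -0.0566 to 0.396 for Timm23 in FoxK1 KD at basal, from -0.114 to 0.0426 for Tomm40 in DKD at basal, and from -0.138 to 0.0122 for Hspd1, -0.329 to 0.0737 for Timm23 and -0.301 to 0.00971 for Tomm40 in the DKD response. The share of all genes called also depends on the setting, as for DKD at basal (21.1%, and 27.0% without Control basal replicate 1). That share is not set beside the counts that follow in this section, which are therefore not a result about the members. Counts of called members moved with the threshold and other settings. At an adjusted p below 0.25 they were 13, 1 and 16 for FoxK1 KD, FoxK2 KD and DKD at basal, 4 and 1 for FoxK1 KD and DKD after insulin, 15 for insulin in Control, 10 in FoxK1 KD, 13 in FoxK2 KD and 7 in DKD cells, and 1 and 3 for the responses of FoxK1 KD and DKD minus Control. With a fold above 1.5 as well they were 3 for FoxK1 KD and 4 for DKD at basal, 1 for FoxK1 KD after insulin, 3, 3, 3 and 1 for insulin in the 4 genotypes and 2 for the DKD response. Fitting only the groups compared gave 0 for FoxK1 KD at basal, 3, 8 and 5 for insulin in Control, FoxK2 KD and DKD, and 0 for the DKD response. With at least 1 count in any sample, 3 were called for FoxK2 KD at basal, 1 for the FoxK1 KD and 3 for the DKD response. DESeq2 called 1 for DKD after insulin and 2 for the DKD response. The cause was not tested.

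Same-numbered samples did not deviate together (mean correlation -0.0134 over 99 pairs, with 8 over 0.1). Of 30 samples, 5 correlated best with their own number. This check saw no shared deviation, but it cannot exclude that same-numbered samples were handled together. With the replicate block, 1 member was called for FoxK1 KD after insulin, 5 for insulin in Control and 0 for the DKD response, and the counts fell from 6 to 4 for FoxK1 KD at basal (without Grpel1 and Pmpcb), from 7 to 6 for DKD at basal (without Timm17b) and from 3 to 2 for insulin in DKD (without Timm21). For insulin in FoxK2 KD it stayed at 5, with Tomm7 in place of Samm50.

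Leaving out 1 sample at a time gave 2 to 7 called members for FoxK1 KD, 0 to 0 for FoxK2 KD and 5 to 8 for DKD at basal, 1 to 1, 0 to 0 and 0 to 0 after insulin, 3 to 11, 5 to 7, 3 to 5 and 0 to 3 for insulin in the 4 genotypes in the order Control, single knockdowns and DKD, and 0 to 0, 0 to 0 and 0 to 2 for the 3 differences in response. The lowest counts came without Control basal replicate 1 or FoxK1 KD basal replicate 3 or 4 (FoxK1 KD at basal), Control insulin replicate 1 (insulin in Control) and DKD insulin replicate 2 (insulin in DKD). Depth limits the low members most, with SE above 0.27 for Timm23.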
